A study of Mus musculus with 24 samples.

Results

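The genes *Myc* and *Mycn*, their partner *Max*, and the pair *Lin28a* and *Lin28b* were followed by name in the RNA-seq table of male differentiating mouse embryonic stem cells (mESCs), 5 of 25965 entries. *Mycn* and *Myc* fell steeply from day 4 to day 7, *Max* fell to day 6, and *Lin28a* stayed the most abundant of the 5 at every day. *Mycn* and *Max* stood above the control of the same day in every library with *Smarcc1* knockdown, and *Max* also in every library with *Smarca4* knockdown. The difference of *Max* with *Smarca4* knockdown did not pass (adjusted *p* = 0.110, limma). Each day had a single control library. With the libraries of a culture series tied together, neither difference with *Smarcc1* knockdown passed (adjusted *p* = 0.144 for *Mycn* and 0.203 for *Max*, limma). *Lin28b* was highest on day 5 in all 5 culture series.

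Male C57/Bl6 mESCs were expanded in 2i and weaned into differentiation medium. Short hairpins against *Smarcc1* or *Smarca4*, or a nonsilencing hairpin (Nons), were delivered by virus on day 2, puromycin was applied on day 3, and RNA was taken on days 4, 5, 6 and 7. *Smarcc1* and *Smarca4* encode subunits of the SWI/SNF (BAF) chromatin remodelling complex, a scaffold and an ATPase. For each gene 2 hairpins were used (Smarcc1.6, Smarcc1.7; Smarca4.4, Smarca4.6), and a hairpin gave 1 library on each day, so that 8 *Smarcc1* knockdown and 8 *Smarca4* knockdown libraries were set against 4 libraries of Nons replicate 1. No values were at hand for the 4 libraries of Nons replicate 2, and the spread between Nons cultures was therefore not measured. All cells, Nons included, came through transduction and drug selection, and nothing says whether the libraries came from separate cell lines, so the *p*-values measure only the spread between these libraries, which may be technical. A genotype label names a Smarcc knockdown for the Smarca4 libraries, whereas their titles name Smarca4. The titles were followed: *Smarca4* stood at 21.6% to 55.3% of same-day Nons in the 8 libraries titled Smarca4 and *Smarcc1* at 23.7% to 60.1% in the 8 titled Smarcc1.

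Myc and Mycn are basic helix-loop-helix leucine zipper transcription factors that bind DNA as heterodimers with Max, preferentially at the E-box CACGTG, and that drive ribosome production, nucleotide and polyamine synthesis and cell growth. In mESCs, Myc and Mycn can stand in for each other in sustaining self-renewal. Max also pairs with Mxd proteins and Mnt, which repress the same sites, and with Mga. Lin28a and Lin28b are RNA-binding proteins of early embryos and stem cells that hold back the maturation of the let-7 microRNAs. They recognise GGAG in the terminal loop of let-7 precursors, and Lin28a recruits enzymes that add uridines to the precursor and mark it for decay. Mature let-7 in turn represses the Lin28 messages and many growth genes, among them Myc in several cell types, and Myc can activate *Lin28b*.

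The let-7 sequences are shown because they carry what Lin28 binds and what binds the Lin28 messages. All 8 mature 5p let-7 microRNAs in the RefSeq table (GRCm38.p6) share the seed, bases 2 to 8, which is in capitals.
let-7a-5p: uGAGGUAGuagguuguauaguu
let-7b-5p: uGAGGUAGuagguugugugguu
let-7c-5p: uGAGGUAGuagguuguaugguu
let-7d-5p: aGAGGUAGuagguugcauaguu
let-7e-5p: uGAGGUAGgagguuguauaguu
let-7f-5p: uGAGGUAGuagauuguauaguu
let-7g-5p: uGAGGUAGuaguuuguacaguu
let-7i-5p: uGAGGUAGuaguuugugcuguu
Of 10 let-7 hairpins in the same table, 8 hold GGAG between the arms. One hairpin with it and one without are shown, *Mirlet7g* at chr9:106178840-106178927 on the plus strand and *Mirlet7b* at chr15:85707319-85707403 on the plus strand, with GGAG of the loop in capitals.
Mirlet7g: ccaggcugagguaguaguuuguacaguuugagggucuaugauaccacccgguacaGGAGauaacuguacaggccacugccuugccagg
Mirlet7b: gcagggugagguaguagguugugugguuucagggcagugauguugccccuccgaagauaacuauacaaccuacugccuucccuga

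Matches to that seed were then searched on the transcribed strand of the longest 3′ UTR of each member in GENCODE M21 (GRCm38). The letters CTACCTC pair with the whole seed. They occurred 2 times in the 2775 bases of *Lin28a*, 4 times in the 4445 bases of *Lin28b* and in none of the UTRs of *Myc*, *Mycn* and *Max*, of 466, 913 and 1299 bases. Among all 21020 genes 9.02% had a match, and among UTRs within 20% of the length of *Lin28a* and *Lin28b* the shares were 14.4% and 24.2%. Each site is shown on the minus strand, from which both genes are read, with the match in capitals.
Lin28a, chr4:134005182-134005211: gcacagcctgttgaaCTACCTCatttttgc
Lin28a, chr4:134004544-134004573: gagatcgccacaaacCTACCTCactgtgtt
Lin28b, chr10:45381015-45381044: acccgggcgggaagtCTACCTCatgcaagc
Lin28b, chr10:45378641-45378670: tatacttgttagtaaCTACCTCtgagtttg
Lin28b, chr10:45378469-45378498: gtttacagcacatggCTACCTCccagctac
Lin28b, chr10:45377053-45377082: aaatgatggcaccgaCTACCTCttcaatca
An A follows the match in both sites of *Lin28a* and in 1 of the 4 sites of *Lin28b*, the one nearest to the stop codon. These are matches of letters, and let-7 itself was not measured in these libraries: the table held no entry whose name begins with Mirlet7.

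The E-box was searched in RefSeq promoter windows from 250 bases before to 50 bases after the start site (GRCm38.p6). Such a window was at hand for 4 of the 5 members. *Myc* had none, so its promoter was not searched. Because CACGTG reads the same on both strands, a single search covers them. It was present in 7.15% of 32851 windows, in that of *Max*, 3 bases before the start, and in that of *Lin28b*, 49 bases before it, and it did not occur in those of *Mycn* and *Lin28a*. The stretch from 100 bases before the start to the start, or to the end of the E-box, is shown for *Max* (chr12:76962246-76962348) and *Lin28b* (chr10:45470202-45470301), on the minus strand with the E-box in capitals.
Max: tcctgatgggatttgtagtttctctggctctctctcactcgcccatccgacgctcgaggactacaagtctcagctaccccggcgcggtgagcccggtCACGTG
Lin28b: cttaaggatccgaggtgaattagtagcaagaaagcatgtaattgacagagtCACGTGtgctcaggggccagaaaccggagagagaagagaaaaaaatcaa

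Library totals ran from 6829596 reads, for Smarca4.4 on day 5, to 27472885, and the next smallest was 15717152. The values are reads scaled to the library total (rpm) on a log2 scale, from which whole reads could be recovered, and the members were deeply covered: the fewest reads behind any value of a member were 69, for *Myc* in Smarcc1.7 on day 7. The cells carried pluripotency transcripts throughout. *Pou5f1*, the pluripotency factor Oct4, had a median of 1406 rpm on day 4 and 227 rpm on day 7, and none of 8 pluripotency markers was at 0 reads in any library. The 8 markers summed to 2918 to 3481 rpm on day 4 and 876 to 1639 rpm on day 7. Over 9 markers of differentiated lineages the sum was 40.4 to 47.3 rpm on day 4 and 1491 to 3290 rpm on day 7. Nearly all of the day 7 sum was *Krt8* and *Krt18*, with medians of 831 and 1103 rpm. *Gata4* rose by 2.57 on the log2 scale, while *Pax6* and *Sox1*, at -0.17 and -0.67, did not pass (limma). *T*, *Mixl1*, *Gata6* and *Sox17* reached at most 0.807, 1.02, 1.46 and 0.593 rpm and were not tested. Fibroblast markers summed to 7.68 to 13.5 rpm on day 4 and 27.6 to 123 rpm on day 7. Among them *Col1a1* and *Col1a2* rose by 3.92 and 5.67 on the log2 scale, whereas *Dcn* fell by 1.65, all past the threshold (limma). *Thy1* and *Pdgfra*, at -0.56 and 0.62, did not pass, and *Col3a1* was at 0 reads in 7 libraries. Of the blood markers, *Hbb-bh1* was at 0 reads in all 20 libraries, *Ptprc* was at 0 reads in 17 of them, and *Cd34* stood at 0.948 to 5.71 rpm in every library. As these were bulk samples, fewer cells that express a gene and less RNA per cell cannot be told apart.

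Levels per length were compared first, as rpm per kb of the union of exons of each gene. *Lin28a* led on every day, with a median of 154 rpm per kb on day 4 (range 134 to 183 over 5 libraries) and 105 on day 7 (101 to 159). *Mycn* followed on day 4 at 76.8 (63.7 to 94.2), apart from *Lin28a* above and *Myc* below. *Myc* and *Max*, at medians of 26.5 and 24.1, had overlapping ranges on day 4, and *Lin28b* was lowest at 4.18 (3.42 to 4.56). By day 7 the order was different. *Max* was the next after *Lin28a*, at 10.02 rpm per kb (7.57 to 11), then *Mycn* at 5.30 (3.31 to 15.3), *Lin28b* at 3.37 (2.96 to 4.41) and *Myc* at 2.31 (1.58 to 4.02), and each of these last 4 overlapped its neighbour. In between, *Mycn* remained the second on days 5 and 6, at medians of 29.0 and 11.6 rpm per kb. On day 6 its range overlapped that of *Max*, and *Myc* and *Lin28b* overlapped from day 5 on.

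**Figure D1:**
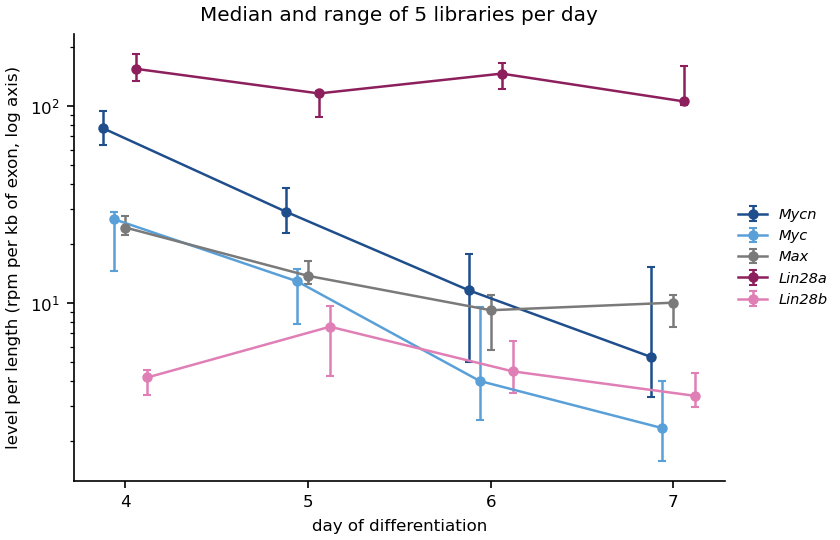
Level of the 5 members in rpm per kb of exon (log axis) on days 4 to 7, as the median (point) and range (bar) of the 5 libraries of each day. Lin28a stays above 88.0 rpm per kb in every library, whereas Mycn goes from a median of 76.8 to 5.30 and Myc from 26.5 to 2.31.

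*Mycn* (chr12:12936096-12941914, minus strand, mm10) had 209.7, 95.5, 27.9 and 14.1 rpm in Nons on days 4, 5, 6 and 7. It had 310.2, 98.7, 58.5 and 50.3 rpm with Smarcc1.6 and 283, 127, 49.6 and 31.1 rpm with Smarcc1.7. With Smarca4.4 the values were 253, 89.3, 38.2 and 17.5 rpm, and with Smarca4.6 they were 243, 74.9, 16.6 and 10.9 rpm. Every series fell at each step, and the libraries of day 7 lay below those of day 4 without overlap. Averaged over the 3 arms, *Mycn* was 12.6-fold lower on day 7 than on day 4, a log2 difference of -3.65 (SE 0.236, adjusted *p* = 4.58e-08, limma with Benjamini-Hochberg adjustment over 13296 genes). The steps were -1.38 from day 4 to day 5, -1.51 from day 5 to day 6 and -0.76 from day 6 to day 7, all past the threshold of 0.05.

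*Myc* (chr15:61985391-61990374, plus strand) had 39.6, 22.1, 9.29 and 7.09 rpm in Nons. The values were 78.1, 21.3, 10.9 and 6.22 rpm with Smarcc1.6 and 72.1, 35.0, 12.6 and 4.30 rpm with Smarcc1.7. They were 73.6, 40.3, 26.0 and 10.9 rpm with Smarca4.4 and 57.5, 39.3, 6.92 and 6.28 rpm with Smarca4.6. On day 4 the Nons library was the lowest of the 5, and from day 5 on it lay within the range of the knockdown libraries. *Myc* was 8.6-fold lower on day 7 than on day 4, a log2 difference of -3.10 (SE 0.322, adjusted *p* = 2.81e-06, limma), again without overlap between the days. It fell by 1.00 on the log2 scale to day 5 and by 1.35 from day 5 to day 6. The last step, -0.75, did not pass (adjusted *p* = 0.0932, limma).

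*Max* (chr12:76937269-76962248, minus strand), the shared partner, had 79.2, 44.7, 20.7 and 27.2 rpm in Nons. Smarcc1.6 gave 99.0, 48.0, 33.0 and 36.1 rpm and Smarcc1.7 gave 92.7, 53.1, 39.2 and 36.8 rpm. Smarca4.4 gave 86.8, 49.3, 36.2 and 34.8 rpm and Smarca4.6 gave 80.4, 58.5, 26.8 and 39.6 rpm. Day 6 was already near the level of day 7, and Nons was the lowest of the 5 libraries on every day. *Max* was 2.58-fold lower on day 7 than on day 4 (log2 difference -1.37, SE 0.127, adjusted *p* = 1.08e-06, limma). The first and the second step measured -0.80 each, and the third, at 0.22, did not pass (adjusted *p* = 0.196, limma).

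*Lin28a* (chr4:134003330-134018841, minus strand) had 607, 476, 602 and 403 rpm in Nons. It had 732, 352, 512 and 637 rpm with Smarcc1.6 and 673, 462, 659 and 579 rpm with Smarcc1.7. It had 616, 471, 583 and 421 rpm with Smarca4.4 and 534, 402, 488 and 413 rpm with Smarca4.6. All 5 series dipped on day 5 and recovered on day 6. The log2 differences were -0.52 for day 5 against day 4 (adjusted *p* = 0.00866, limma) and 0.39 for day 6 against day 5 (adjusted *p* = 0.0391, limma). The second of these passed in 8 of 13 alternatives, and its adjusted *p* was 0.0825, 0.0728, 0.127 and 0.124 without Smarcc1.6, Smarcc1.7, Smarca4.4 and Smarca4.6, and 0.100 without a filter. Day 7 against day 4 gave -0.42 (SE 0.131, adjusted *p* = 0.0129, limma), or 1.34-fold lower, with overlapping libraries. This call was lost under quantile normalization (-0.30, adjusted *p* = 0.0666) and without Smarca4.4 (-0.39, adjusted *p* = 0.0697).

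*Lin28b* (chr10:45376620-45470201, minus strand) had 39.9, 87.6, 35.6 and 30.1 rpm in Nons. It had 31.0, 52.9, 40.7 and 32.9 rpm with Smarcc1.6 and 35.7, 68.6, 45.4 and 30.6 rpm with Smarcc1.7. It had 41.3, 81.4, 58.3 and 40.0 rpm with Smarca4.4 and 37.9, 38.5, 31.8 and 26.8 rpm with Smarca4.6. Day 5 was the peak in each series, although Smarca4.6 rose by only 0.02 on the log2 scale there while the other 4 rose by 0.77 to 1.14. The mean rise from day 4 to day 5 was 0.83 (SE 0.231, adjusted *p* = 0.0140, limma), and the step to day 6 was -0.72 (adjusted *p* = 0.0312, limma). Between the ends of the timecourse the difference was -0.25 and did not pass (adjusted *p* = 0.362, limma).

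**Figure D2:**
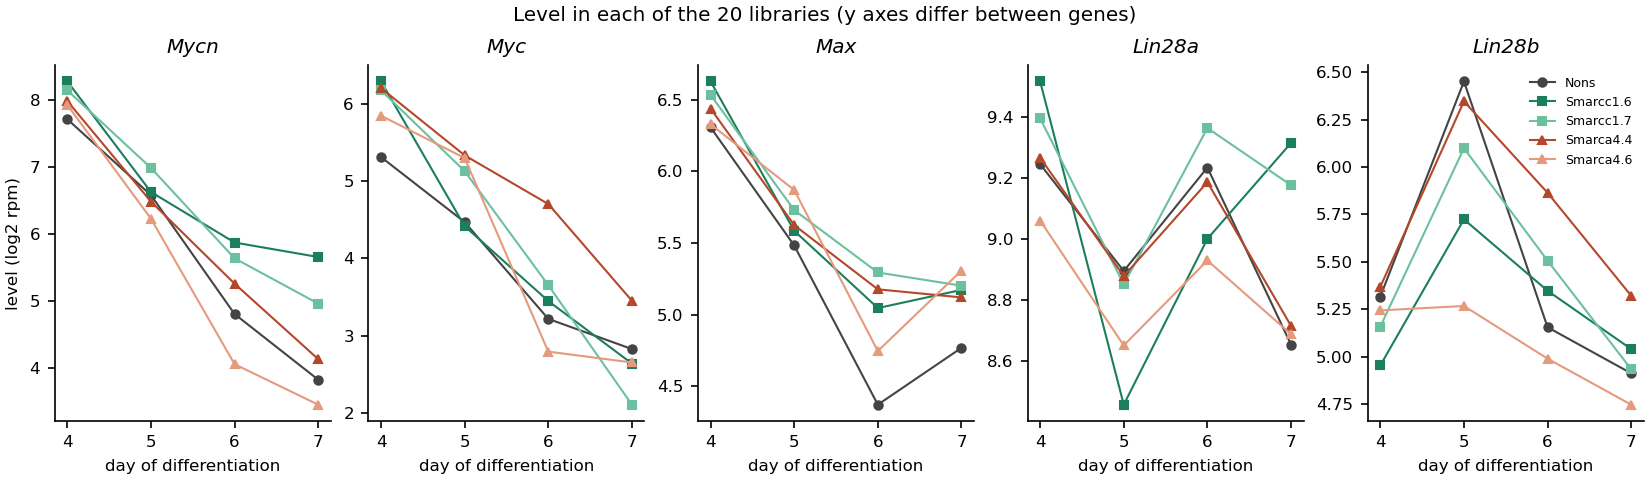
Level of each member in log2 rpm (y axes differ) on days 4 to 7, 1 point per library, lines joining the libraries of Nons, Smarcc1.6, Smarcc1.7, Smarca4.4 and Smarca4.6. Mycn and Myc go down at each step in all 5 series, and Max goes down to day 6 in all 5. Lin28a dips where Lin28b peaks, on day 5.

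In counts, 4 of the 5 members were called between day 7 and day 4, all of them lower, where 64.5% of all genes tested were called, 28.8% lower and 35.7% higher. All 5 were called from day 4 to day 5, against 38.7% of all genes, and all 5 from day 5 to day 6, against 32.3%. From day 6 to day 7 only *Mycn* was called, against 27.5%. At that step the median of all genes tested was 0.15, and with each library centred on its median gene *Myc* and *Lin28a* passed as well (-0.95 and -0.49). *Lin28a* and *Lin28b* moved in opposite directions at the first step and again at the second. Within libraries, the ratio of *Lin28a* to *Lin28b* rpm, uncorrected for length, had a median of 15.2 on day 4, 6.66 on day 5, 14.5 on day 6 and 15.4 on day 7. The ratio of *Myc* to *Mycn* had medians of 0.252, 0.276, 0.333 and 0.502 on the same days.

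Genes on which these factors are known to act were counted next. Of 46 known *Myc* targets, mostly genes of ribosome assembly, nucleolar function and nucleotide synthesis, 41 were lower on day 7 than on day 4 and none was higher. Their median log2 difference was -1.10, and that of all genes tested was 0.08. Of all genes tested, 28.8% were called lower and 35.7% higher. *Imp4*, a component of small ribosomal subunit processing, measured -2.32 (adjusted *p* = 7.18e-08, limma) and *Polr1b*, a subunit of RNA polymerase I, -2.22 (adjusted *p* = 5.91e-07, limma). The 5 that did not pass were *Cad*, *Hk2*, *Npm1*, *Ran* and *Tmem97*, named after their values were seen. At the first step 19 of the 46 fell and 5 rose, among them *Ldha*, lactate dehydrogenase, at 0.80. At the second 26 fell and at the third 24, with none rising. Of all 13296 genes tested, 2555 were called lower and 2592 higher at the first step. The counts were 2032 and 2256 at the second, and 1408 and 2248 at the third. *Mir17hg*, the host transcript of a microRNA cluster that Myc is known to activate, was 1.61 lower on the log2 scale on day 7 than on day 4 (adjusted *p* = 2.79e-06, limma), from a median of 36.3 rpm to 12.4 rpm.

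Partners and regulators of Myc were counted in the same way, beside 35.7% of all genes higher and 28.8% lower. In the Myc and Max network, 2 of 11 genes were higher on day 7 and 4 lower, with a median of -0.25. *Mycl1*, the third Myc family gene, rose by 0.70 and *Mxi1*, which competes for Max, by 0.61, whereas *Mga* measured -0.88 and *Mxd3* -0.81. Among 17 cofactors and regulators of Myc turnover, 2 were higher and 8 lower, with a median of -0.53. The kinases *Pim3* and *Pim1*, which phosphorylate Myc, rose by 2.24 and 1.77, and *Skp2*, a ubiquitin ligase subunit, measured -1.12.

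Genes around Lin28 were read against the same 35.7% higher and 28.8% lower. Of 16 genes of let-7 processing and decay, 6 were higher on day 7 and 5 lower (median -0.30). *Eif2c4*, which encodes Argonaute 4, rose by 3.36 and *Prkra*, a Dicer partner, by 2.44, while *Tarbp2*, the other Dicer partner, measured -0.95 and *Dgcr8*, of the Microprocessor, -0.94. The uridylating enzyme gene *Zcchc6* and *Dis3l2*, the nuclease for uridylated let-7 precursors, rose at the step from day 6 to day 7, by 0.83 and 0.60. Of 20 known let-7 targets, 8 were higher on day 7 and 4 lower, with a median of 0.35. *Arid3a*, a DNA-binding factor, rose by 2.99 and the cell cycle kinase gene *Cdk6* by 1.92, and the cell cycle genes *Cdc25a* and *Ccnd1* measured -1.14 and -0.99.

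**Figure D3:**
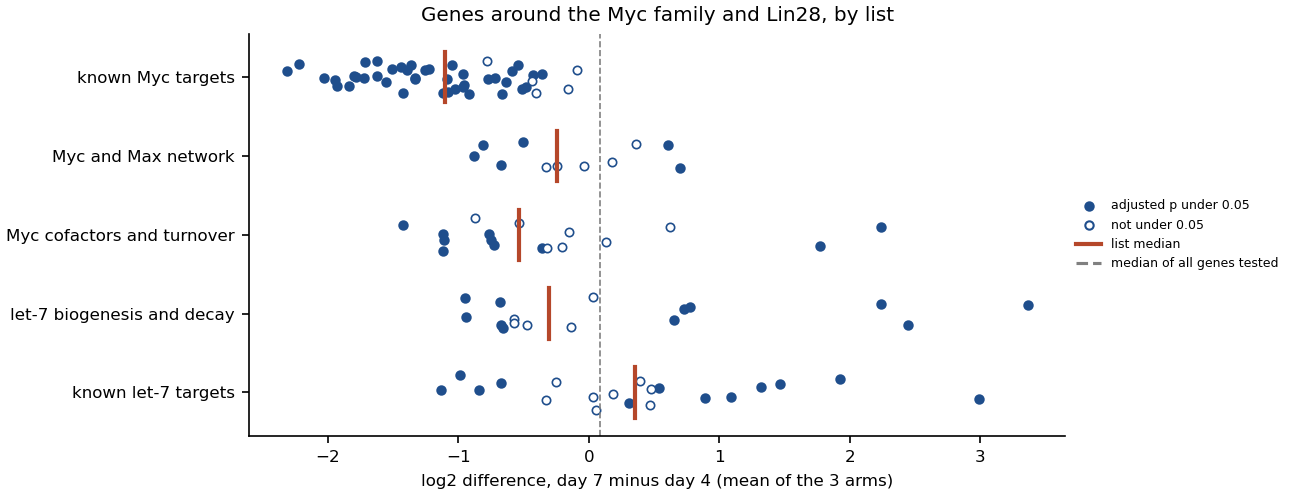
Log2 difference of day 7 minus day 4 for each gene of 5 lists (filled, adjusted p under 0.05; open, not), with the list median (bar) and the median of all 13296 genes tested (dashed line). The 46 known Myc targets have a median of -1.10 and all lie below 0, whereas the other lists have genes on either side of 0.

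The knockdowns were then compared with Nons, which asks whether the remodeller subunits bear on these levels. Both comparisons share the same 4 Nons libraries. With *Smarcc1* knockdown, 2 of the 5 members were called, both higher, where 10.6% of all genes were called, 7.54% higher and 3.08% lower. The share of called genes that were higher, 71.0%, was 53.7% under quantile normalization. *Mycn* was above same-day Nons in 8 of 8 libraries, by 0.05 to 1.83 on the log2 scale, and the excess was smallest on day 5 and largest on day 7, at 1.83 for Smarcc1.6 and 1.14 for Smarcc1.7. Averaged over days it was 0.79 (SE 0.217, adjusted *p* = 0.0347, limma), a 1.73-fold higher level. *Max* was above same-day Nons in 8 of 8 libraries, by 0.10 to 0.92, with a mean of 0.42 (SE 0.117, adjusted *p* = 0.0381, limma). With a replicate block that ties the 4 libraries of each culture series together, the adjusted *p* was 0.144 for *Mycn* and 0.203 for *Max*. With Smarcc1.6 or Smarcc1.7 left out, 0 members were called.

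The other members were not called with *Smarcc1* knockdown. *Myc* measured 0.28 (SE 0.296, adjusted *p* = 0.632, limma), and its differences from same-day Nons went from 0.98 and 0.86 on day 4 to -0.19 and -0.72 on day 7. *Lin28a* measured 0.13 (SE 0.120, adjusted *p* = 0.581, limma), with 5 of 8 libraries above Nons, both of day 7 among them at 0.66 and 0.52. *Lin28b* measured -0.11 (SE 0.212, adjusted *p* = 0.793, limma), with 4 of 8 above.

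With *Smarca4* knockdown none of the 5 members was called, where 6.71% of all genes were, 4.75% higher and 1.96% lower. Of the called genes 70.7% were higher, and 60.5% or 52.9% after centring or quantile normalization. *Max* was again above same-day Nons in 8 of 8 libraries, by 0.02 to 0.81, with a mean of 0.34 (SE 0.117, unadjusted *p* = 0.0117, adjusted *p* = 0.110, limma), and it was the only member with an unadjusted *p* under 0.05. With limma-voom on recovered reads the count was also 0. *Myc* was above Nons in 6 of 8 libraries, with a mean of 0.58 (SE 0.296, adjusted *p* = 0.313, limma) that was 0.19 without Smarca4.4 and 0.97 without Smarca4.6, neither called. Its hairpins parted on days 6 and 7, Smarca4.4 at 1.49 and 0.63 above Nons and Smarca4.6 at -0.42 and -0.17. *Mycn*, at -0.04 (adjusted *p* = 0.949, limma), was split 4 to 4, and *Lin28a* and *Lin28b* measured -0.08 and -0.07. Without Smarca4.6 the estimates of *Mycn*, *Lin28a* and *Lin28b* turned positive, to 0.23, 0.0044 and 0.27, none of them called.

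**Figure D4:**
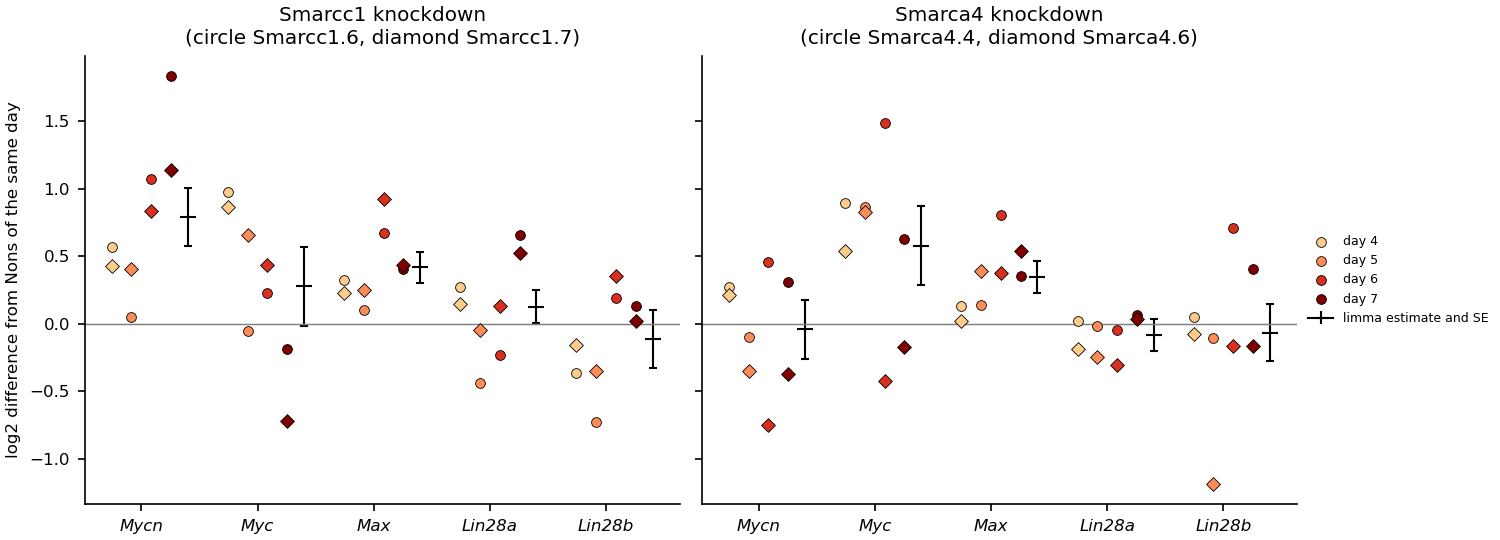
Log2 difference of each knockdown library from the Nons library of the same day, by gene, hairpin (symbol) and day (colour), with the limma estimate and its SE in black. The 8 Smarcc1 knockdown points of Mycn and of Max lie above 0, as do the 8 Smarca4 knockdown points of Max, whereas Mycn is split 4 to 4 with Smarca4 knockdown.

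The knockdowns were also set against each other, which needs no Nons library. *Mycn* was 1.78-fold higher with *Smarcc1* than with *Smarca4* knockdown (log2 difference 0.83, SE 0.177, adjusted *p* = 0.020, limma), the only member called, where 4.09% of all genes were. Its adjusted *p* was 0.118 under the replicate block. *Max* differed by 0.07 (SE 0.0955, adjusted *p* = 0.809, limma), *Lin28a* by 0.21 (SE 0.0982, adjusted *p* = 0.314, limma), *Myc* by -0.30 (SE 0.242) and *Lin28b* by -0.05 (SE 0.173). Changes over days were tested as a slope in log2 per day. None of the 5 members was called for a difference in slope from Nons, where 0.94% of all genes were with *Smarcc1* knockdown and 0.135% with *Smarca4* knockdown. With limma-voom the counts were also 0. The lowest unadjusted *p* in limma-trend was 0.0806, for *Mycn* with *Smarcc1* knockdown, whose slope differed by 0.37 per day. That of *Myc* differed by -0.41 per day with *Smarcc1* knockdown (SE 0.265, adjusted *p* = 0.770, limma).

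Ratios within a library do not depend on its total. On each day 1 of the 3 libraries, Nons or a hairpin, was let play Nons, which gives 81 arrangements and a smallest two-sided exact *p* of 0.0123. These arrangements exchange libraries day by day and do not keep the libraries of a culture series together, and whole series exchanged would give 3 arrangements, too few for any *p* under 0.05. With *Smarca4* knockdown the log2 ratio of *Myc* to *Mycn* was higher than in same-day Nons in 8 of 8 libraries, by 0.62 on average (exact permutation *p* = 0.0123, the smallest possible, and 0.0494 adjusted over 4 ratio tests). Without day 5 the mean was 0.47 (exact *p* = 0.0741). With *Smarcc1* knockdown the mean was -0.51 (exact *p* = 0.185, adjusted 0.247), and the difference changed sign over days. Both hairpins were above Nons on day 4, at -1.99 and -1.97 against -2.40, and below it on day 7, at -3.02 and -2.85 against -0.99. The ratio of *Lin28a* to *Lin28b* differed from Nons by 0.24 with *Smarcc1* knockdown (exact *p* = 0.123) and by -0.02 with *Smarca4* knockdown (exact *p* = 0.938).

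**Figure D5:**
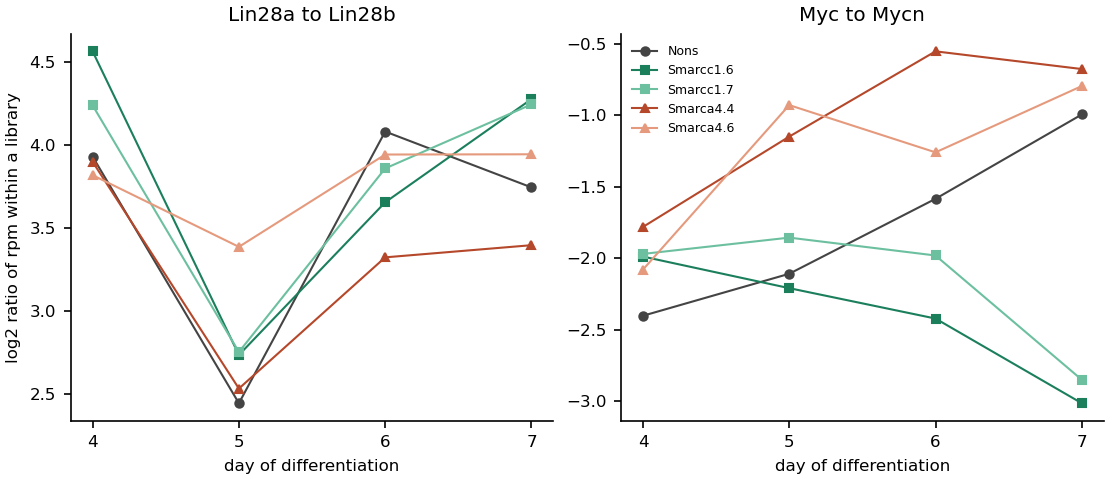
Log2 ratio of Lin28a to Lin28b and of Myc to Mycn rpm within each library, by day, lines joining the libraries of a series. The Lin28 ratio is lowest on day 5 in every series, and for Myc to Mycn the Smarcc1 knockdown series end below Nons on day 7 (-3.02 and -2.85 against -0.99) while both Smarca4 knockdown series lie above Nons on every day.

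The surrounding genes were counted in the knockdowns too, where 7.54% of all genes were higher with *Smarcc1* and 4.75% with *Smarca4* knockdown. Of the 46 known Myc targets, 1 was higher with *Smarcc1* knockdown, *Srm*, which encodes spermidine synthase, at 0.52 (adjusted *p* = 0.0432, limma), and 45 did not pass. With *Smarca4* knockdown none of the 46 passed, and *Srm* measured 0.54. The list medians were 0.07 in each, and those of all genes tested 0.06. In the Myc and Max network 3 of 11 genes were higher with *Smarcc1* knockdown and 2 with *Smarca4* knockdown. *Mlxipl*, a glucose-responsive partner of Mlx, rose by 1.67 and 1.37, and *Mxd4*, a repressive Max partner, by 0.71 and 0.75. None of the 17 cofactors and none of the 16 let-7 processing genes passed in either comparison. Of the 20 known let-7 targets only *Cdk6* passed, at -1.08 with *Smarcc1* and -0.98 with *Smarca4* knockdown.

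Markers of the pluripotent state and of other cells were read beside these levels. Of the 8 pluripotency markers, 4 were higher with *Smarcc1* knockdown, *Esrrb* by 1.84 and *Nanog* by 1.09 on the log2 scale, and 3 with *Smarca4* knockdown, where *Mycn* was not called, against 7.54% and 4.75% of all genes. None was called lower in either. *Pou5f1* measured 0.05 with *Smarcc1* and -0.51 with *Smarca4* knockdown, and *Utf1* 0.05 and 0.31, none of them called. On day 7 the 8 markers summed to 876 rpm in Nons, to 1399 and 1639 rpm with *Smarcc1* knockdown and to 1225 and 1329 rpm with *Smarca4* knockdown. Between the knockdowns, *Esrrb* was 0.60 and *Sox2* 0.38 higher with *Smarcc1* knockdown. Of the fibroblast markers, *Pdgfra* and *Col1a1* were 1.38 and 1.32 higher with *Smarcc1* knockdown and *Dcn* measured -2.95. These 3 were low, with medians of 1.86, 3.43 and 0.957 rpm over all libraries, and *Dcn* was at 0 reads in 1 library. With *Smarca4* knockdown *Dcn* measured -2.37 (adjusted *p* = 0.0127, limma), and no fibroblast marker was called higher. Of the 9 differentiated lineage markers 5 were tested. *Sox1* and *Gata4* were 2.40 and 1.14 higher with *Smarcc1* knockdown and 2.33 and 0.89 higher with *Smarca4* knockdown, and the keratin genes *Krt18* and *Krt8* measured -0.77 and -0.71 with *Smarcc1* knockdown, both called. On day 7 the 9 summed to 3290 rpm in Nons, 1491 and 1554 rpm with *Smarcc1* knockdown and 1954 and 2862 rpm with *Smarca4* knockdown. Nearly all of each sum was *Krt8* and *Krt18*. The part of these markers' cells in the level of *Mycn* was not tested.

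Genes whose log2 rpm ran most like each member over the 20 libraries were listed by Pearson's correlation, with the day not taken out. They were *Cyp2b23*, *Spry4* and *Fam49a* for *Mycn* (0.983 for the closest), *Gpatch4*, *Trub1* and *Ina* for *Myc* (0.970) and *Ino80e*, *Rarg* and *L3mbtl2* for *Max* (0.979). *Lin28a* had less close neighbours, *Mest*, *Abcc4* and *Gja1* (0.860), and so had *Lin28b*, with *Gmps*, *Snapc3* and *Pgbd1* (0.829). Among the members, *Myc* and *Mycn* correlated at 0.884, *Mycn* and *Max* at 0.882 and *Myc* and *Max* at 0.867. After each day's mean was taken off, these became 0.120, 0.393 and 0.460, and the largest was that of *Mycn* and *Lin28a*, at 0.681. *Lin28a* and *Lin28b* correlated at -0.193 before and 0.284 after. The 20 libraries share days, hairpins and a single Nons series, so these are descriptions.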

How the data were processed

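Sample titles gave the arm, hairpin and day. Per the labels and the study's methods, single-end 75 bp reads were trimmed (trim_galore) and aligned (tophat or hisat2, mm10), and the authors deposited log2 rpm values per gene, reads scaled to the library total, from SeqMonk's RNA-seq quantitation; the submitters' processing notes name bcl2fastq, HISAT2 and mm10. The annotation release and strand use are not given in the sources used here, so antisense and overlapping genes are uncertain. The lowest value of a library equals 0.9 of a read. On that basis 100% of values below 1000 reads came out whole within 0.02 of a read and library totals were recovered. No per-sample column was left unused.

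Single genes were tested with limma 3.58.1 (lmFit, contrasts.fit, eBayes with trend) in R 4.3.3 on the 13296 genes whose mean log2 value reached 0 or more, which all 5 members passed, with Benjamini-Hochberg adjustment over all of them and a threshold of 0.05. A mean was fitted for each of the 12 combinations of arm and day. Hairpin pairs supply the 8 residual degrees of freedom, since Nons has 1 library per day and its own spread is assumed to be like theirs. Knockdown contrasts were averaged over days and day contrasts over arms. Ratios were tested by exact permutation in Python 3.11.15 with scipy 1.17.1. The method was tested on simulated data. Those data were drawn independently for each library, without the correlation within a culture series. Hairpin pairs were not copies of each other, with a chi-square per gene of 2.82 to 119 over their recovered reads. Hairpin numbers are names and do not pair cultures of different groups. The replicate block was the culture series, a random effect with a correlation of 0.217. Exon lengths and 3′ UTRs came from GENCODE M21, microRNAs and promoters from RefSeq.

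Named genes were the members, the targeted genes, the 2 largest rises and falls past the threshold in each list, and the 3 genes most correlated with each member. The members and the lists were chosen with earlier results of these data known. Alternatives were no filter or a filter at 10 rpm, 1 added to the rpm, centring, quantile normalization, limma-voom on recovered reads, an additive model, the replicate block, leaving out each hairpin, leaving out the smallest library and, for ratios, leaving out each day. A gene that the rule would name is not reported here.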

Additional observations from a re-analysis of the deposited data

Results flagged for a closer look

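*Mycn* differed between the knockdowns: with *Smarcc1* knockdown it was 0.83 higher on the log2 scale than with *Smarca4* knockdown (adjusted *p* = 0.020, limma, tested directly). It stood above same-day Nons in 8 of 8 *Smarcc1* knockdown libraries and in 4 of 8 *Smarca4* knockdown libraries. The value ranged from 0.56 to 1.11 over 13 alternatives and passed the threshold in 9 of them. Its adjusted *p* was 0.118 under the replicate block. Each combination of arm and day held 1 or 2 libraries, too few to look for single outlying libraries.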

How the results depend on the processing

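The falls of *Mycn*, *Myc* and *Max* from day 4 to day 7 passed in 13 of 13 alternatives, with log2 differences of -3.83 to -3.55, -3.29 to -2.92 and -1.55 to -1.32. Of the *Smarcc1* knockdown calls, *Mycn* passed in 9 of 13 alternatives (0.70 to 0.88) and *Max* in 4 of 13 (0.35 to 0.46). The number of members called with *Smarcc1* knockdown, 2, was 1 without a filter, with centring on the median gene and with quantile normalization, and 0 with a mean of at least 10 rpm and with the replicate block (culture series); it was 0 to 1 when a hairpin was left out, 0 without Smarcc1.6 or Smarcc1.7 and 1 without Smarca4.4 or Smarca4.6. Between the knockdowns the 1 member called became 0 with the replicate block and 0 to 1 without a hairpin, 0 without Smarcc1.6, Smarcc1.7 or Smarca4.6. From day 4 to day 5 the 5 called became 2 without Smarcc1.6, and from day 5 to day 6 they became 3 without Smarcc1.6 or Smarcc1.7. At these steps *Lin28b* passed in 11 and 10 of 13 alternatives (adjusted *p* up to 0.0538 and 0.112). From day 6 to day 7 the 1 called was 3 with centring, 2 with quantile normalization, the additive model or the replicate block, and 0 to 2 without a hairpin. The replicate block changed no other count of members called. Estimates that turned sign were all uncalled. With a hairpin left out, those with *Smarca4* knockdown ran from -0.32 to 0.23 for *Mycn*, -0.17 to 0.0044 for *Lin28a*, -0.40 to 0.27 for *Lin28b* and -0.22 to 0.066 for the *Mycn* slope, in each case positive without Smarca4.6. Between the knockdowns they ran from -0.69 to 0.084 for *Myc* and from -0.38 to 0.28 for *Lin28b*, positive without Smarca4.4 and, for *Lin28b*, also without Smarcc1.6 (0.031) or without the smallest library, Smarca4.4 on day 5 (0.087). With 1 day left out, the log2 ratio of *Lin28a* to *Lin28b* ran from 0.15 to 0.43 with *Smarcc1* knockdown (exact *p* = 0.037 for the latter, without day 6) and from -0.20 to 0.12 with *Smarca4* knockdown, and that of *Myc* to *Mycn* with *Smarca4* knockdown from 0.47 (exact *p* = 0.0741, without day 5) to 0.74; with *Smarcc1* knockdown the latter ran from -0.83 without day 4 to -0.039 without day 7, none passing. The causes were not tested. Over all genes, the number called ran from 579 to 1797 with *Smarcc1* knockdown (1412 as reported), 258 to 1144 with *Smarca4* knockdown (892), 49 to 1067 between the knockdowns (544) and 5816 to 10806 between day 7 and day 4 (8575). Each difference from Nons rests on a single Nons library per day.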
